A study of Mus musculus with 2 samples.

Results

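The Iroquois genes Irx1 to Irx6 lie in 2 clusters of the mouse genome. The sites described here are the TBX5 peaks of adult ventricle chromatin that fall in or beside 2 windows set for these clusters. Where a cluster is said below to have sites, the sites of its window are meant. A site was counted when its summit, the base with the highest pileup of sequenced fragments, lay between 94.2 and 95.3 Mb of chromosome 8 (the window of Irx3, Irx5 and Irx6) or between 72 and 73.6 Mb of chromosome 13 (the window of Irx1, Irx2 and Irx4), on build mm9. This gave 22 of the 8849 sites in the list, 10 on chromosome 8 and 12 on chromosome 13. The windows were set with the list's results known, and the one on chromosome 8 was chosen by the deposited score of a site in it, one of the highest of the list. The score, fold and fragments of that site are therefore a description, and no test was made of them.

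The chromatin came from heart ventricles of wild-type C57BL/6 mice aged 15 weeks, fixed in 2% formaldehyde and given no treatment. It was immunoprecipitated with an antibody against TBX5, and a rabbit IgG served as the control pull-down of the study. The design names 2 biological replicates per antibody, but the list used here is a single merged one. Ventricles hold several cell types, and which of them carried the bound DNA was not measured. The spread between replicates is unknown for every value, and the intervals below cover the counting error of fragments only.

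Iroquois proteins are transcription factors of the TALE homeodomain class, and the clusters are copies of 1 ancestral cluster. In the mouse heart Irx4 is known as a marker and regulator of the ventricular chamber, Irx3 as a factor of the ventricular conduction system, and Irx5 as a repressor that helps set the gradient of repolarization across the ventricular wall. Irx1 and Irx2 are expressed in the ventricular septum, and Irx6 is the less studied member of its cluster. TBX5 is a T-box factor required for heart development and for the conduction system. The question put to the data was where TBX5 was bound around these genes and whether the clusters differ in number, strength and spacing of sites.

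A gene table of assembly GRCm38.p6 held all 6 Irx genes and was used for names and order only. It lists Fto, Irx3, Irx5, Irx6 and Mmp2 in this order among the protein-coding genes of chromosome 8. On chromosome 13 the order is Adamts16, Irx1, Irx2, Irx4 and Ndufs6. No protein-coding gene stands between the members of either cluster. Fto, the neighbour of Irx3, encodes an RNA demethylase, and its introns are known to hold elements that contact Irx3 over a long distance. No gene positions on mm9 were used here. The distance from a site to the start of an Irx gene, and whether a site is in an exon, an intron or between genes, were therefore not computed, and it was not checked on mm9 that the windows contain the genes. Distances between summits are given in their place.

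The same source gave promoter sequences for 3 of the 6 genes, Irx2, Irx3 and Irx4. They are shown because T-box factors recognise DNA related to the core motif GGTGTGA, and these are the stretches at the members' own starts on which this can be read. Each line holds the 250 bases before the gene's start, in the direction of transcription, from RefSeq on GRCm38.p6. These coordinates are not on mm9 and cannot be set beside those of the sites. Capitals mark stretches that match GGTGTGA, or its reverse complement TCACACC, in at least 6 of 7 letters.
Irx2 promoter (GRCm38.p6 chr13:72628570-72628819, + strand): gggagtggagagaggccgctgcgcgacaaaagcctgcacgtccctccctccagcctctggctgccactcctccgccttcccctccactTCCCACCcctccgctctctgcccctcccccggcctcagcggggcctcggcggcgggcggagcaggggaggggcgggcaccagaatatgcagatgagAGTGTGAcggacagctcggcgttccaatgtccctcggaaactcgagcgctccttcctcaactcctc
Irx3 promoter (GRCm38.p6 chr8:91801655-91801904, - strand): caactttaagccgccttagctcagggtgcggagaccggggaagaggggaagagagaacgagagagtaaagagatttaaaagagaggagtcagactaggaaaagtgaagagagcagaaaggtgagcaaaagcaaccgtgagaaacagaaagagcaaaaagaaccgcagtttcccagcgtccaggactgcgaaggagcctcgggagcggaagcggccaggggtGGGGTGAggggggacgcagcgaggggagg
Irx4 promoter (GRCm38.p6 chr13:73260247-73260496, + strand): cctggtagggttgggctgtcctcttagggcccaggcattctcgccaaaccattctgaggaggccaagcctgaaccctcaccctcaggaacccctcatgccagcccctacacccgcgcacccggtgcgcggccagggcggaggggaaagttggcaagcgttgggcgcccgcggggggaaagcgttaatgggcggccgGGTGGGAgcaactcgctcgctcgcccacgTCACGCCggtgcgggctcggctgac
None of the 3 held the full core motif on either strand, which 3.33% of all 32851 promoters in the table hold in the same 250 bases. The near matches numbered 2 for Irx2, 1 for Irx3 and 2 for Irx4. A near match is found in 51.6% of all promoters, so its presence here is no sign of a TBX5 site. The Irx2 and Irx4 promoters were rich in G and C, at 68.4% and 68.8%, and the Irx3 promoter had 56% against a median of 52.4% over all promoters.

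The chromosome 8 cluster had 1 dominant TBX5 site and 9 modest ones. The dominant site, at chr8:94511798-94512231 with its summit at 94512004, held 209 TBX5 fragments (95% Poisson interval 182 to 239) over a local control level of 7. This level is the largest of several averages of control reads around the summit, and the fold is the scaled number of TBX5 fragments plus 1, divided by the level plus 1. The deposited fold of this site was 20.7, and counting error of the TBX5 fragments alone put it between 18.0 and 23.7. Its score rank was 10 among 8849 sites and its width 434 bp. By TBX5 fragments alone it ranked 6, and by fold 155.

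By its construction a fold falls as the control level rises, and the control level at the dominant site was high for a site of its score. All 9 other sites among the 10 highest-scoring of the list had a higher fold, from 26.5 to 44.9, and none of them had a higher control level. Their levels ran from 1.63 to 5. Of these 9, 8 held fewer TBX5 fragments than the Irx site and 1 held 210. If the control level of 7 is read as a count of 7 control fragments, its own Poisson interval of 2.81 to 14.4 would put the fold between 10.7 and 43.4. On that reading the place of the dominant site in an order by fold is loosely fixed. The level may also be an average over a wider stretch, and whether it is such a count was not determined. On the same reading, the site's number of TBX5 fragments is the tighter measure by counting error. That number is not corrected for the local control level.

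The other sites of the chromosome 8 window held 14 to 37 TBX5 fragments, with folds from 3.003 to 7.67. The second by score, at chr8:95017500-95017635, had 28 fragments (18.6 to 40.5) over a control level of 2 and a fold of 7.67. The next, at chr8:94396733-94396930, had 37 fragments (26.1 to 51.0) over a level of 4 and a fold of 6.02. The dominant site, for which the window was chosen, held 45.1% of the 463 summit fragments summed over the window. It held 7.46 times the fragments of the second site by score, which was not the second by fragments (28 against 37).

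Ranks 4 and 5 in the window were taken by neighbours of those sites. The site at chr8:94491422-94491655, 20.5 kb before the dominant summit, had 35 fragments (24.4 to 48.7), a control level of 3.5 and a fold of 6.34. The site at chr8:94425429-94425769 was the widest of the 9 at 341 bp, with 31 fragments (21.1 to 44.0) and a fold of 5.08. These middle sites did not differ from each other beyond their counting intervals. The remaining sites in order along the chromosome started with chr8:94274525-94274667, which held 22 fragments at a fold of 6.10. Next came chr8:94311344-94311502 with 20 fragments at a fold of 4.62 and chr8:94325382-94325580 with 32 fragments at a fold of 3.27. The latter had the same control level as the dominant site, 7, so the gap in fold between these sites comes from TBX5 fragments. The last of the remaining sites were chr8:94836139-94836327, with 14 fragments and a fold of 5.52, and chr8:94880236-94880405, with 35 fragments and a fold of 3.003. That site had the highest control level of the window, 8.5, and its lowest score, a −log10 q of 3.68.

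**Figure D1:**
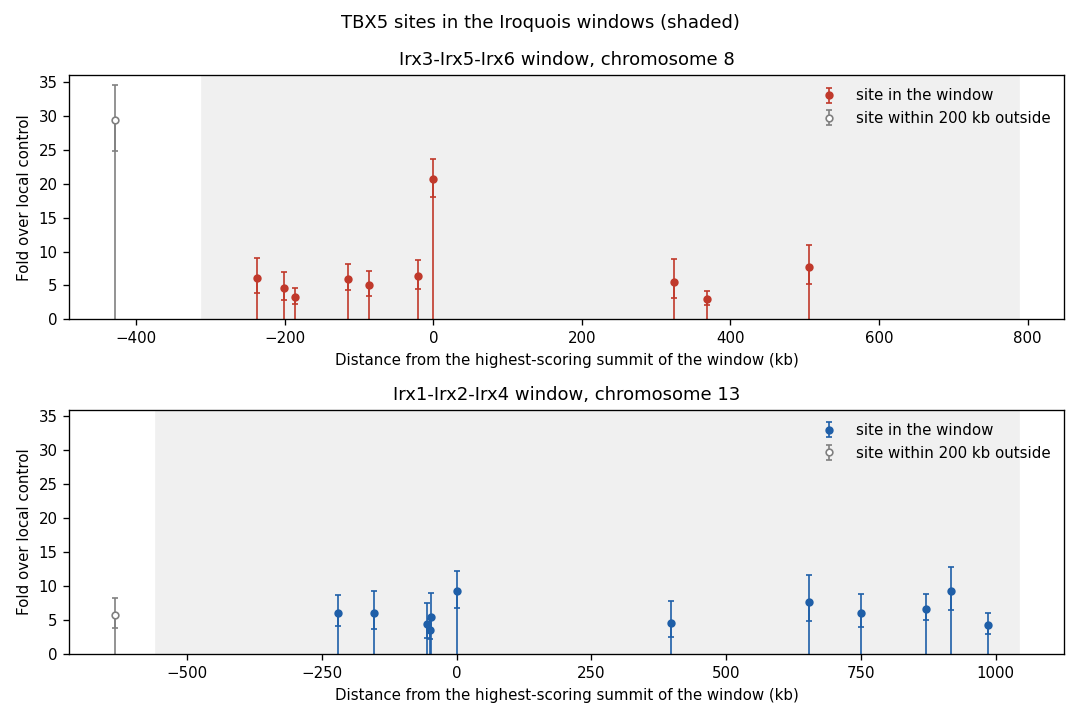
Fold over the local control level of each TBX5 site (vertical axis, linear from 0) against its distance in kb from the highest-scoring summit of its window (horizontal axis), for the chromosome 8 window above and the chromosome 13 window below. Shading marks the windows, filled points are the 10 and 12 sites in them, open points are sites up to 200 kb outside, and bars are 95% Poisson intervals of the TBX5 fragments with the control level held fixed. The site at fold 20.7 stands alone in the upper window, an open point at fold 29.4 lies before its edge, and no site of the lower window exceeds 9.30.

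The chromosome 13 cluster had no site of comparable strength, and its sites were graded. Its highest-scoring site, at chr13:72556981-72557319, held 46 TBX5 fragments (33.7 to 61.4) over a level of 3, which gave a fold of 9.30 (6.87 to 12.3). It ranked 1471 in the list and was the widest of the window at 339 bp. The second by score, at chr13:73427703-73428036, held more fragments, 50 (37.1 to 65.9), over a higher control level of 5, and its fold was 6.72. The third, at chr13:73474274-73474482, lay 46.5 kb further on and held 34 fragments (23.5 to 47.5) over a level of 2, with 9.25 as its fold. These 3 sites overlapped in their fragment intervals, so their order is not settled.

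Ranks 4 and 5 by score were far apart in this window. The site at chr13:72336265-72336394 held 28 fragments (18.6 to 40.5) at a fold of 6.14. The site at chr13:73211101-73211360 held 20 fragments (12.2 to 30.9) over the genome background of 1.18 control fragments per position, the lowest level the caller allows, and its fold was 7.69. Fold and fragment number thus ordered these sites differently. Of the lower-scoring ones, chr13:73307948-73308088 held 25 fragments at a fold of 6.12 and chr13:73543209-73543433 held 32 at a fold of 4.36, the latter over a control level of 5, the highest of the window and shared with the second site by score. The site at chr13:72403351-72403475 held 18 fragments at a fold of 6.06 and was the narrowest of the window at 125 bp. The site at chr13:72955551-72955676 held 12 fragments (6.201 to 21.0) at a fold of 4.64 and stood alone between the ends of the window.

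A single group of close sites was found in the 2 clusters, on chromosome 13. It consisted of 3 sites within 12500 bp of one another, all of low score. The site at chr13:72501938-72502118 held 11 fragments (5.49 to 19.7) at a fold of 4.44 and had the lowest score of the window, a −log10 q of 2.24. Its summit was 6.58 kb from that of chr13:72508432-72508616, which held 21 fragments (12.999 to 32.1) at a fold of 3.50. Only 0.813 kb further on, chr13:72509267-72509406 held 14 fragments (7.65 to 23.5) at a fold of 5.52. The last 2 may be parts of 1 enriched region, which was not tested. The highest-scoring site of the window followed 47.9 kb after the group.

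**Figure D2:**
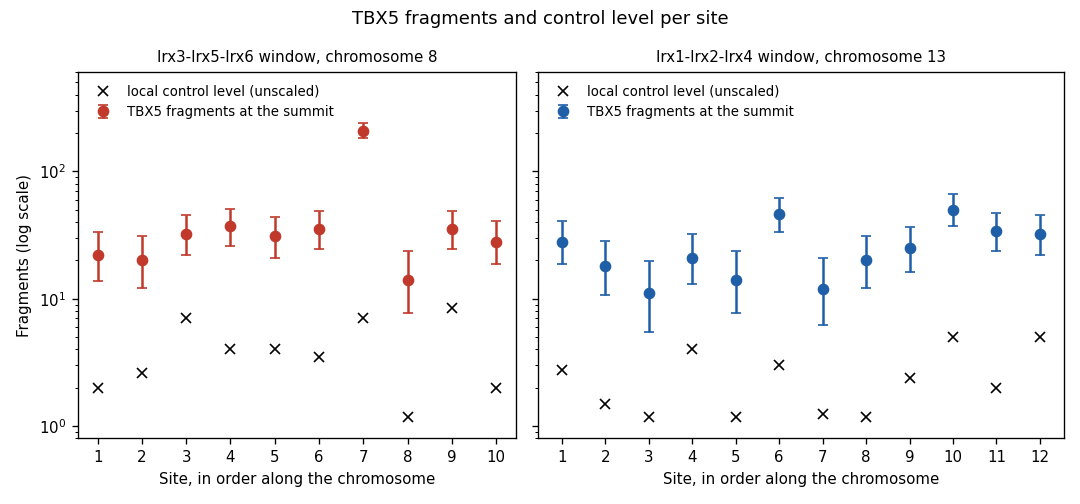
TBX5 fragments at the summit (filled circles, with 95% Poisson intervals) and the local control level (crosses) for each site, on a log axis, in order along the chromosome from 1 to 10 for chromosome 8 (left) and 1 to 12 for chromosome 13 (right). Fragments are shown before the scaling used in the fold. Site 7 on the left, with 209 fragments, is apart from the other sites, which hold 11 to 50 in both panels.

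Set side by side, the highest-scoring chromosome 8 site held 4.54 times the TBX5 fragments of the highest-scoring chromosome 13 site. The latter was not the highest of its window by fragments (46 against 50). The fold of the chromosome 8 site was 2.22 times as high and its width 1.28 times. If the control levels of 7 and 3 are read as counts, the folds would run from 10.7 to 43.4 and from 3.81 to 17.1. For the count of 3, the Poisson lower limit of 0.619 was raised to the genome background of 1.18, the lowest level the caller allows. The chromosome 8 window was chosen for its highest-scoring site, so the ratios above describe the choice and are no evidence that the clusters differ.

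Without the highest-scoring site of each, the ranges of both clusters overlapped. The median was 31 TBX5 fragments (14 to 37, 9 sites) on chromosome 8 and 21 (11 to 50, 11 sites) on chromosome 13. The median fold was in the opposite order, 5.52 (3.003 to 7.67) on chromosome 8 and 6.06 (3.50 to 9.25) on chromosome 13. Median control levels were 3.5 and 2 for these sites, so the chromosome 8 sites had more fragments over a higher control. Sites are not replicates, and neither difference was tested.

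Most Iroquois sites were ordinary members of the list. The list's median site had 32 TBX5 fragments, a control level of 3.5, a fold of 5.52 and a width of 202 bp. With all its sites the chromosome 8 window had medians of 31.5 fragments, a level of 3.75, a fold of 5.77 and 193.5 bp, and the chromosome 13 window had 23, 2.19, 6.09 and 183 bp. Folds of at least 10 were seen at 1 of 10 sites on chromosome 8 and 0 of 12 on chromosome 13, against 13.7% of the list. A score at or above the list's median was held by 5 of 10 and 6 of 12 sites, against 50.3% of the list. The shares by score are close to the list's own, so by them the sites are not set apart. By fold the shares were lower than in the list, on few sites. The site for which the chromosome 8 window was chosen is counted in both, and it is the only one with a fold of at least 10.

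Other features gave shares that were in part further from the list's, most so for the control level on chromosome 13, on few sites. A −log10 q of 5 or more was held by 6 of 10 and 8 of 12 sites, against 71.7% of the list. The control level was at the genome background for 1 of 10 and 3 of 12 sites, against 8.58% of the list, and at 5 or more for 3 of 10 and 2 of 12, against 35.7%. Widths of 300 bp or more were seen at 2 of 10 and 2 of 12 sites, against 21.4%. One pair across the clusters was equal in every deposited value but position and width. The sites at chr8:94836139-94836327 and chr13:72509267-72509406 both had 14 fragments over the genome background. Sites alike in these values are alike in the deposited ones, and further sites of the list hold them too (share not counted). The match is therefore no sign of a link between the clusters.

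**Figure D3:**
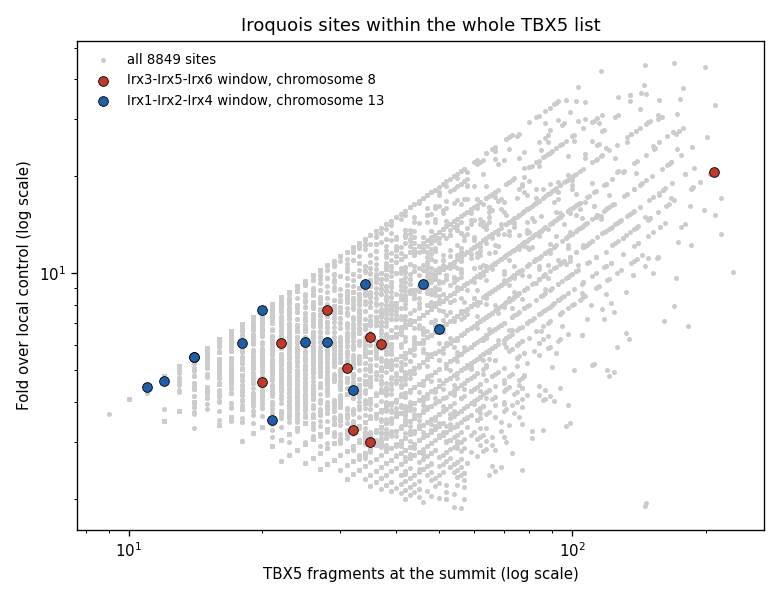
Fold over the local control level (vertical, log axis) against TBX5 fragments at the summit (horizontal, log axis) for all 8849 sites (grey) and for the sites of the chromosome 8 (red) and chromosome 13 (blue) windows. Diagonal bands are sites of equal control level. The red point at 209 fragments and a fold of 20.7 is at the right end of the cloud and below its upper edge, the other Iroquois sites are in its dense part, and 1 red and 1 blue point coincide at 14 fragments.

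The median distance to the nearest site was close to the list's on chromosome 8 and longer on chromosome 13. On chromosome 8 the median gap between neighbouring summits was 44.1 kb (14.1 to 324 kb), and on chromosome 13 it was 68.9 kb (0.813 to 398 kb). The median gap in the whole list was 74.1 kb. That value takes in every gap, while the windows' medians hold only gaps between sites inside them. Gaps after the last site of each window, 706 and 532 kb, were left out. The medians of the gaps are therefore not measured alike, and no shorter spacing than in the list is concluded. The distance from a summit to the nearest other one had a median of 28.8 kb on chromosome 8 and 57.5 kb on chromosome 13, against 27.3 kb in the list. A neighbour within 12500 bp, measured between the edges of sites, was present for 0 of 10 sites on chromosome 8 and 3 of 12 on chromosome 13, against 36.5% of the list. The sites of these clusters thus mostly stood singly, more than 14 kb apart on chromosome 8 and, outside the group, more than 46 kb apart on chromosome 13.

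Each window was split by a long stretch without a site in the list. On chromosome 8 this stretch followed the dominant site and measured 324 kb, from the summit at 94512004 to that at 94836213. It left 7 of 10 sites, all within 237 kb, on the side of the dominant one and 3 sites spread over 181 kb on the other. On chromosome 13 the longest stretch followed the highest-scoring site as well, with 398 kb from 72557208 to 72955653. It left 6 sites within 221 kb on one side and 6 over 588 kb on the other. Gaps at least as long make up 20.3% of all gaps in the list for the chromosome 8 stretch and 16.8% for the chromosome 13 stretch, so neither is rare.

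Sites on either side of these stretches had overlapping ranges of strength. On chromosome 13 the 6 sites before it held a median of 19.5 fragments (11 to 46) and those after it 28.5 (12 to 50). Median folds were 5.79 and 6.42. On chromosome 8 the 7 sites before the gap had a median of 32 fragments (20 to 209) and the 3 after it 28 (14 to 35). The clusters were alike in having their highest-scoring site at the edge of the long gap, an observation made after the positions were seen and not tested.

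In number of sites both windows were above most of the genome but not unusual. The density was 9.09 sites per Mb on chromosome 8 and 7.50 on chromosome 13, a ratio of 1.21. The whole chromosomes had 4.18 and 3.48 sites per Mb between their first and last site. Of 2175 stretches of 1.1 Mb that tile chromosomes 1 to 19, the median held 3 sites and 253 (11.6%) held 10 or more. Of 1503 stretches of 1.6 Mb, the median held 4 and 239 (15.9%) held 12 or more. The fullest stretches held 33 and 34 sites. Stretches without a site were counted too, 546 of 1.1 Mb and 276 of 1.6 Mb, but only between the first and last site of each chromosome. The windows were chosen with the list's results known, so their place among the stretches is a description.

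**Figure D4:**
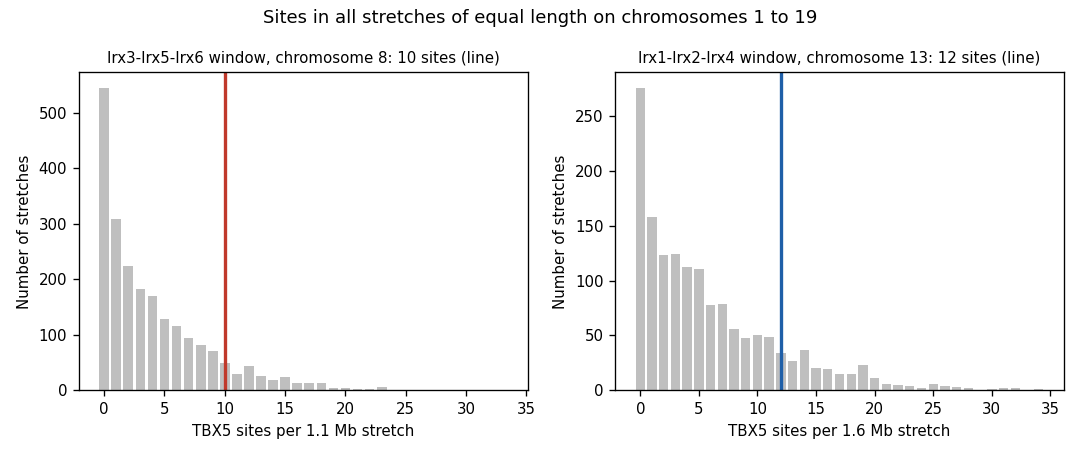
Number of stretches (vertical) by the TBX5 sites they hold (horizontal) for stretches of 1.1 Mb (left) and 1.6 Mb (right). They tile chromosomes 1 to 19 from the stretch of the first site to that of the last. Coloured lines mark the Iroquois windows of the same length, with 10 sites on chromosome 8 and 12 on chromosome 13. Both lines are to the right of most stretches, and 11.6% and 15.9% of stretches reach or pass them.

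Window edges decide whether the chromosome 8 cluster has 1 strong site or more. The first site before the window, at chr8:94082284-94082697, lay 117 kb outside it and 429 kb from the dominant summit. It held 148 TBX5 fragments (125 to 174) over a level of 3, had a fold of 29.4 (24.9 to 34.4) and ranked 33 by score. It had more fold but fewer fragments than the dominant site inside. No site of the list lay between it and the first site of the window, 192 kb on. On mm9 it was not determined whether this site is in Fto, before it or in neither.

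The other edges brought ordinary sites. The first site inside the chromosome 8 window, 74.6 kb from its edge, had the fold of 6.10 given above. The last inside was 282 kb from the far edge, and the next outside, at chr8:95723039-95723288, was 423 kb beyond it with 26 fragments and a fold of 5.36. On chromosome 13 the site before the window, at chr13:71922286-71922450, was 77.6 kb outside with 28 fragments and a fold of 5.76. The first inside was 336 kb from that edge. At the far edge the last inside was 56.7 kb away, and the next outside, at chr13:74075168-74075429, was 475 kb beyond with 49 fragments over a control level of 12 and a fold of 3.04.

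The surroundings of the dominant chromosome 8 site were set beside those of the other sites among the 10 highest-scoring of the list. Within 550 kb of each of these 10 summits the next site by score was found. For the Irx site it was the one before the window, with a −log10 q of 132 against 152 at the dominant site, a ratio of 1.16. For the 9 others the next site had a −log10 q of 19.5 to 110, and the ratio ran from 1.45 to 9.85. By fragments the order was another: the most at any site within 550 kb were 148 for the Irx site and 230 for the third-ranked site, on chromosome 17, and the 8 others had fewer than 148. The nearest site of any score was 20.5 kb away at the Irx site, a distance that 2 of the 9 others exceeded. Within 550 kb it had 10 other sites, and the others had 5 to 25. These sites were ranked by score, so the values are a description.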

How the data were processed

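ChIP-seq measured TBX5-bound DNA in adult ventricle chromatin. The series names an IgG sample, which was not analysed here. Build mm9, MACS2 (version 2.1.1.20160309.0), Bowtie2 (version 2.2.6.2) and FastQC (version 0.10.0) are named in the submitters' processing notes. Settings, control library and merging of replicates: not given in the sources used here. For the deposited list this leaves the columns themselves. It holds for each site a fold (ratio) over the local control, a −log10 p, a −log10 q and a score, all the authors' values. The deposited score equalled 10 times the −log10 q, rounded down, in 8846 of 8849 sites, and the lowest −log10 q was 1.30. Coordinates are counted from 1.

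TBX5 fragments and control levels were recovered by solving fold and −log10 p for a whole number of fragments, with a scale of 0.787 and a genome background of 1.18. All 8849 sites were solved within 0.005 on −log10 p (largest difference 0.00014). A second solution existed for 240 sites, none of them in the windows. The recovery was tested on simulated data. Depth is known only through these fragments. Reads may repeat a molecule, and the exact 95% Poisson intervals cover counting error only.

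With 1 merged list no test between samples was possible, and sites are not replicates. The windows, genes and comparisons were chosen with earlier results of these data known. Sites named in full were the 5 highest-scoring, the widest, the one with the highest control and the lowest-scoring of each window and all sites of groups of 3 or more; with 22 sites, the others are given more briefly. Stretches without full length at chromosome ends were kept if they held a site. The planned distance from genes needs positions on mm9, and the planned comparison of Iroquois proteins needs protein sequences; neither was run. The software was Python 3.11.15 with matplotlib 3.10.9, pandas 2.3.3, scipy 1.17.1 and, for arrays, numpy 2.4.6.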

Additional observations from a re-analysis of the deposited data

How the results depend on the processing

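Of 58 recomputed values, 52 stayed within the limits (a factor of 1.5 for counts and for the ratio, the 95% order-statistic interval for medians) and 6 moved. Sites with a −log10 q of 5 or more left 6 sites on chromosome 8 and no group of close sites (0) on chromosome 13. Sites at or above the list's median score left 5 on chromosome 8 and 6 on chromosome 13, again with 0 groups there. Stitching at 25 kb gave 2 groups on chromosome 8 in place of 0. These moves follow from fewer sites or a longer distance. The ratio of densities was 1.35 when sites were divided by the span of the summits, and tiles shifted by 50% of their length gave 12.2% and 15.5%; both settings were chosen after seeing the data. Medians of fold and fragments stayed within wide limits, since each window holds few sites. Windows widened by 200 kb took in 1 site each, on chromosome 8 the strong one before the window. Sites that missed the caller's q threshold are not in the list, so weak sites may be missed. No paired analysis was possible because the replicates were merged into 1 list, and for the same reason no replicate could be left out.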
